A study of Mus musculus with 9 samples.

Results

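The repolarizing potassium channel genes described here are 9 of the 22851 genes in the count table of mouse heart, taken by their symbols. They are Kcnd2, Kcnd3, Kcnip2, Kcna4, Kcna5, Kcnj2, Kcnj3, Kcnj11 and Kcnq1, and all 9 were found and passed the filter on low counts in every comparison. No threshold on a measured value was used to pick them, but they were chosen with earlier results of these data known. RNA was sequenced in 9 libraries, 3 in each of 3 groups of male C57BL/6 mice (C57BL/6J in the methods) that were 6 to 8 weeks old at the start. CK mice received citrate buffer only. DCM mice, the model of diabetic cardiomyopathy, received a single dose of streptozotocin (STZ, a toxin of the insulin-producing beta cells) at 180 mg/kg and were kept on a normal diet for 12 weeks. SPM mice received the same STZ and also spermine, a polyamine, at 1 mg/kg, daily for the 2 weeks before STZ and every other day for the 12 weeks after it. There was no group given spermine without STZ. The model rests on the loss of beta cells and not on obesity. The methods give both 3 mice per group and pools of 6 hearts, without settling which went into a library, and p-values measure only the spread between these libraries.

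Potassium currents return the cardiac action potential to rest, and in the mouse, whose heart beats fast, the early phase is carried mainly by transient outward and ultrarapid currents. Kcnd2 (Kv4.2) and Kcnd3 (Kv4.3) code for the pore of the fast transient outward current, with Kcnip2 (KChIP2) as its calcium-binding accessory subunit, while Kcna4 (Kv1.4) forms the slow transient outward channel and Kcna5 (Kv1.5) the ultrarapid delayed rectifier. Kcnq1 (Kv7.1) forms the slow delayed rectifier together with Kcne1. The inward rectifiers hold the resting potential (Kcnj2, Kir2.1), answer to acetylcholine (Kcnj3, Kir3.1, which is richest in atria) or open when ATP falls (Kcnj11, Kir6.2, the pore of the ATP-sensitive channel).

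The libraries held 29901300 to 39718680 counts. The mitochondrial share was highest in SPM (21.01% to 21.09%), with 15.5% to 18.9% for DCM and 13.7% to 16.2% for CK. The extraction protocol of the libraries speaks of retinas, but all 7 ventricular myocyte markers in the table, led by Myh6, Myl2 and Myl3, were above 1 CPM (counts scaled to the library's total) in every library, and all 6 retinal markers in the table were below 1 CPM in every library, with sums of 0.576 to 1.56 CPM. Fibroblast markers summed to 1878 to 1959 CPM (CK), 1266 to 1356 CPM (DCM) and 1499 to 1554 CPM (SPM), and macrophage markers to 615 to 814, 514 to 607 and 610.4 to 1028 CPM in this order. Sums were 1601 to 1849, 1513 to 1677 and 1386 to 1512 CPM for endothelium, and over all libraries 7.46 to 9.17 CPM for neurons and glia and 17.6 to 32.4 CPM for the conduction system. Some sums held genes that went different ways. In SPM compared to CK, 2 of the 5 fibroblast markers passed the test described below as higher and 3 as lower. Col3a1 stood at 483 to 506 CPM in CK and 110 to 236 CPM in SPM, and Dcn at 751 to 862 and 909 to 1080 CPM. In DCM compared to CK, 1 of the 6 macrophage markers passed as higher and 4 as lower. SPM replicate 2 stood apart from the other libraries: its counts were described by a mixture of 45.1% of SPM replicate 1 with SPM replicate 3 as the remainder, and over 12860 genes the median of the squared deviations was 0.887 when counting noise is set to 1. Among the other 251 ways of describing 1 library by 2 others, the smallest median was 2.52. SPM replicate 2 lay between the other SPM libraries for 7 of the 9 channel genes. Calls in SPM are therefore given with and without it, and no value of the 9 genes that did not pass with it passed without it.

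The 250 bases upstream of the RefSeq start are shown for Kcnip2, Kcnd2 and Kcnj3, 5′ to 3′ on the gene's strand (GRCm38.p6). Motif matches on either strand are in capitals. Kcnip2 and Kcnj3 passed the test described below in SPM compared to DCM, whereas Kcnd2 passed it in no comparison. Kcnj11, the only member that passed in DCM compared to CK, had no promoter window. The motifs searched were the GC box GGGCGG, the CACCC motif bound by Krüppel-like factors, the TATA box TATAAA and the GATA motif AGATAA, which occur in 32.7%, 52.0%, 12.4% and 9.99% of 32851 mouse promoters in windows of the same length. The Kcnip2 window (chr19:45816064-45816313, minus strand) holds 4 matches of CACCC and 2 of the GC box. The Kcnd2 window (chr6:21215096-21215345, plus strand) holds 1 of each. The Kcnj3 window (chr2:55435720-55435969, plus strand) holds none of the 4 motifs. Of the windows not shown, that of Kcna4 also holds 4 matches of CACCC and that of Kcnj2 also holds 2 of the GC box. The percentages count windows with at least 1 match. A match is a stretch of letters and was not tested as a binding site.
Kcnip2: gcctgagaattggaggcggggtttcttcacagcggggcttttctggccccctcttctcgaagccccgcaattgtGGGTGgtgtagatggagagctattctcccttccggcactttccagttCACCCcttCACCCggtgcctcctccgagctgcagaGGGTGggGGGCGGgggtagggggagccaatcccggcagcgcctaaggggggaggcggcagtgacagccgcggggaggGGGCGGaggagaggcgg
Kcnd2: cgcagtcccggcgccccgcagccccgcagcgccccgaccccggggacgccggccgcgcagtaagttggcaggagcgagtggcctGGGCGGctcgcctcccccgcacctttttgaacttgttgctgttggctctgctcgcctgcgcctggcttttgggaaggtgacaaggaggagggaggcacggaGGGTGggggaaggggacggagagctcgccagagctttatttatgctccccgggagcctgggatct
Kcnj3: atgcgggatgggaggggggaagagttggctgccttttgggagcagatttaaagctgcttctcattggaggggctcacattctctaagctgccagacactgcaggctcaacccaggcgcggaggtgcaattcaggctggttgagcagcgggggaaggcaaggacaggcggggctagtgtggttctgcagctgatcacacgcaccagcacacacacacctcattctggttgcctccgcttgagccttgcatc

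Levels of different genes were compared per length, in FPKM (fragments per kilobase, scaled to the library's total), with the SD over 3 libraries. In CK the order was Kcnip2 (76.4 ± 2.18 FPKM), Kcnj11 (61.9 ± 2.58 FPKM), Kcna5 (20.9 ± 2.51 FPKM), Kcnq1 (13.9 ± 0.767 FPKM), Kcnj2 (6.18 ± 0.452 FPKM), Kcnj3 (5.56 ± 0.905 FPKM), Kcnd2 (3.76 ± 0.763 FPKM), Kcnd3 (2.07 ± 0.247 FPKM) and Kcna4 (0.447 ± 0.0903 FPKM). Of these neighbours, only Kcnj2 and Kcnj3 had overlapping ranges in CK. On the FPKM scale the accessory subunit Kcnip2 was above its pore genes Kcnd2 and Kcnd3 in every library. In DCM, Kcnj11 stood first with 78.6 ± 1.56 FPKM and Kcnip2 second with 70.5 ± 4.58 FPKM, with no overlap of their ranges. In SPM, Kcnj11 was again first, with 76.1 ± 1.25 FPKM against 58.2 ± 3.57 FPKM for Kcnip2. The ranges of Kcnd2 and Kcnd3 and those of Kcnj2 and Kcnj3 overlapped in DCM, and in SPM Kcnj3 lay above Kcnj2, at 6.71 ± 0.747 FPKM against 5.04 ± 0.130 FPKM.

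**Figure D1:**
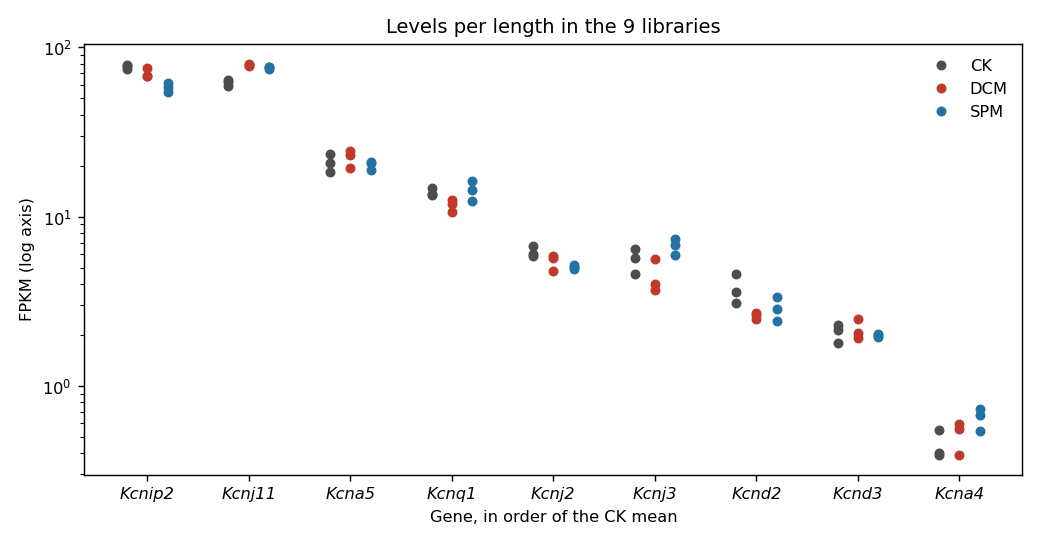
FPKM of each of the 9 genes (log axis) in the 9 libraries, in the order of the CK mean, with 1 point per library and colour by group. Kcnip2 and Kcnj11 lie above 50 FPKM in all libraries, and Kcna4 lies below 1 FPKM in all of them.

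Changes were measured on counts, separately for each of 3 comparisons on the 6 libraries concerned, with edgeR's quasi-likelihood test and Benjamini-Hochberg adjustment over all genes tested. A gene passed at an adjusted p below 0.05 and was a differentially expressed gene (DEG) when its fold change was also at least 1.5. Levels per library are given as normalized CPM. The comparisons share libraries, so that a call in DCM compared to CK and one in SPM compared to CK rest on the same CK libraries.

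In DCM compared to CK, 1 of the 9 genes passed, Kcnj11, and none was a DEG, whereas 10.4% of the 14402 genes tested passed and 4.34% were DEGs. By direction, 5.28% of all genes passed as higher and 5.11% as lower. The groups did not overlap for 2 of the 9 genes, Kcnj11 and Kcnd2, against 29.3% of all genes. The median log2 fold change of the 9 was -0.03 and that of all genes was 0.00. Kcnip2 and Kcnj3 passed in SPM compared to DCM, and Kcnj3 was the only DEG. Among all 14493 genes tested there, 16.6% passed, 8.87% as higher and 7.76% as lower, and 3.59% were DEGs. The groups did not overlap for 2 of the 9, against 39.2% of all genes. Kcnip2 and Kcnj11 passed in SPM compared to CK and none of the 9 was a DEG. Among 14574 genes tested, 27.4% passed, 13.0% as higher and 14.3% as lower, and 9.21% were DEGs. The groups did not overlap for 4 of the 9 genes, against 46.3% of all genes. The median log2 fold change of the 9 was -0.04 in SPM compared to DCM and 0.05 in SPM compared to CK, with 0.01 and 0.00 over all genes.

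**Figure D2:**
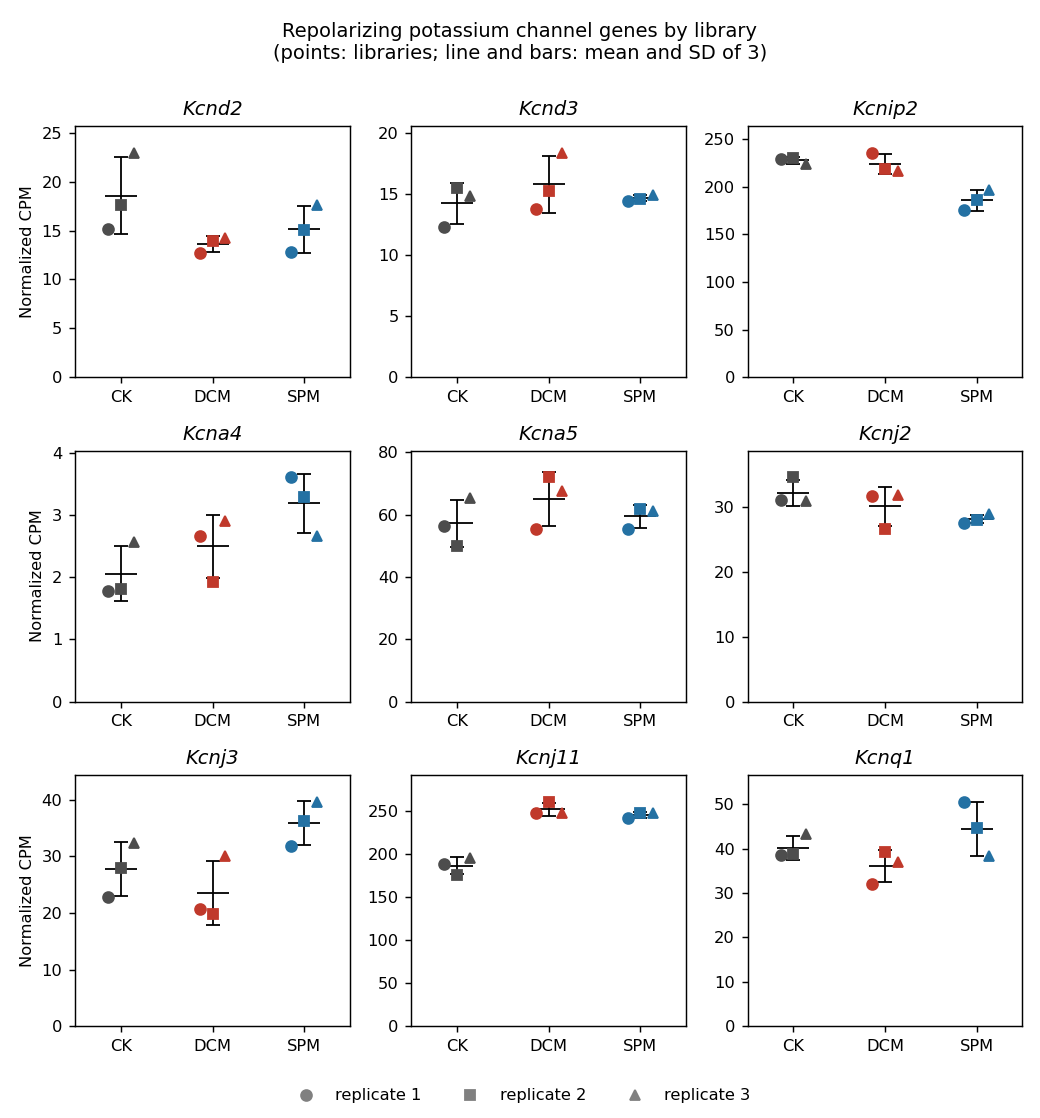
Normalized CPM of the 9 channel genes per library in CK, DCM and SPM (vertical axes from 0), with the mean and SD of 3 libraries as line and bars and the replicate number as symbol. The CK libraries of Kcnj11 sit below all DCM and SPM libraries, and the SPM libraries of Kcnip2 sit below all CK and DCM libraries.

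**Figure D3:**
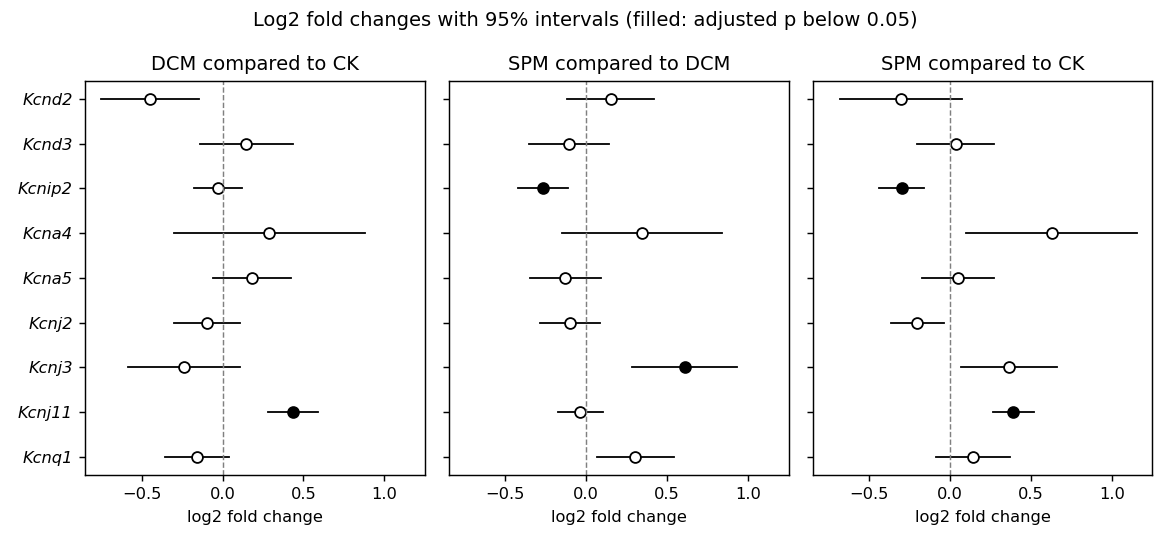
Log2 fold changes of the 9 genes with 95% intervals in the 3 comparisons (horizontal axes), with filled points where the adjusted p was below 0.05. Filled points are Kcnj11 in DCM compared to CK, Kcnip2 and Kcnj3 in SPM compared to DCM, and Kcnip2 and Kcnj11 in SPM compared to CK.

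Kcnj11, the pore of the ATP-sensitive potassium channel, rose after STZ with and without spermine. The gene (ENSMUSG00000096146) lies at chr7:46093953-46100764 on the minus strand of GRCm38 in GENCODE M21. It stood at 188, 176 and 195 normalized CPM in CK, at 247, 260.4 and 248 in DCM, and at 242, 247 and 247 in SPM. All CK libraries were below all others, and the DCM and SPM ranges overlapped. In DCM compared to CK its log2 fold change was 0.44 (SE 0.07, 95% interval 0.28 to 0.59, adjusted p = 0.00205), a rise of 35.2%. It was 0.39 (SE 0.06, 95% interval 0.26 to 0.52, adjusted p = 0.00232) in SPM compared to CK. Between SPM and DCM the log2 difference was -0.04, with a 95% interval of -0.18 to 0.10. Kcnj11 passed under all 16 alternatives in DCM compared to CK, with log2 fold changes of 0.34 to 0.47, and under all 16 in SPM compared to CK, with 0.29 to 0.54. The latter was 0.39 without SPM replicate 2 (adjusted p = 0.0200). In bulk tissue, fewer cells of a type and less RNA per cell cannot be told apart, here and for every gene below.

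Of the other genes of the ATP-sensitive channels, the sulfonylurea receptors that Kir6 pores need did not pass in any of the 3 comparisons, except that Abcc8 passed in SPM compared to CK with the GC offset described below (0.23, adjusted p = 0.0315). Abcc9 (SUR2), the receptor of cardiac and vascular channels, lay between 390.4 and 479.8 normalized CPM, with log2 fold changes of 0.08 (SE 0.08) in DCM and 0.17 (SE 0.06, adjusted p = 0.0549) in SPM, each compared to CK. Abcc8 (SUR1) had log2 fold changes of -0.07 (SE 0.08) and 0.07 (SE 0.06) in the same comparisons. Kcnj8 (Kir6.1), the pore of vascular ATP-sensitive channels, fell by 0.45 in log2 in SPM compared to CK (SE 0.09, adjusted p = 0.00818) and by 0.24 in SPM compared to DCM (SE 0.07, adjusted p = 0.0380), but its -0.20 in DCM compared to CK did not pass. The fall in SPM compared to DCM did not pass without SPM replicate 2 (-0.26, adjusted p = 0.147) or with the GC offset (-0.16, adjusted p = 0.187), whereas that compared to CK passed without SPM replicate 2 (-0.46, adjusted p = 0.0357). The summed level of 6 smooth muscle and pericyte markers was 905 to 1059 CPM (CK), 898 to 1127 CPM (DCM) and 893 to 965 CPM (SPM). In SPM compared to CK, 1 of the 6 passed as higher and 2 as lower. Of the 6, 5 reached 1 CPM in every library, none was at 0 in all libraries, and their part in the result was not tested.

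Kcnj2, the main pore of the resting inward rectifier, did not pass in any comparison. It stood at 31.1, 34.6 and 30.9 normalized CPM in CK, at 31.7, 26.7 and 31.9 in DCM and at 27.6, 27.9 and 28.9 in SPM. The SPM libraries were all below the CK libraries. Its log2 fold change in SPM compared to CK was -0.20 (95% interval -0.36 to -0.04, adjusted p = 0.0688), and with the trend on GC content of each library as an offset it was -0.46 and passed (adjusted p = 0.00342). It also passed with limma on log2 of FPKM plus 0.1 (-0.29, adjusted p = 0.0336) or plus 1 (-0.25, adjusted p = 0.0361), but not under the other 13 alternatives. With the same offset Kcnj2 also passed in SPM compared to DCM, at -0.40 (adjusted p = 0.0241) against -0.10 without it. Kcnj12 (Kir2.2), a second pore of this current, rose in both comparisons with CK. It stood at 21.4, 20.9 and 23.9 normalized CPM in CK, at 38.7, 42.4 and 41.1 in DCM and at 40.1, 40.5 and 39.8 in SPM, so that every library after STZ was above every CK library. Its log2 fold change was 0.88 (SE 0.09, adjusted p = 6.68e-05) in DCM and 0.86 (SE 0.07, adjusted p = 4.06e-04) in SPM compared to CK, and Kcnj12 was a DEG in both. Its value in SPM without replicate 2 was 0.85 (adjusted p = 0.00355).

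Kcnj3, which codes for the channel opened by acetylcholine, rose in SPM compared to DCM. The gene (ENSMUSG00000026824) lies at chr2:55435970-55598145 on the plus strand of GRCm38. It stood at 22.9, 28.1 and 32.4 normalized CPM in CK, at 20.7, 19.9 and 30.1 in DCM and at 31.8, 36.3 and 39.6 in SPM. Every SPM library was above every DCM library, by little in the case of SPM replicate 1 and DCM replicate 3, and the CK range overlapped with both. This was a log2 fold change of 0.61 (SE 0.15, 95% interval 0.28 to 0.93, adjusted p = 0.0242), a fold change of 1.52. Without SPM replicate 2 it was 0.60 and did not pass (adjusted p = 0.0765), nor did it without DCM replicate 1 (0.51, adjusted p = 0.0944), without DCM replicate 2 (0.50, adjusted p = 0.111) or with the GC offset (0.41, adjusted p = 0.0942). Across 14392 to 14564 genes with a GC value, Spearman's correlation of the log2 fold change with GC content was -0.50 in SPM compared to DCM, -0.37 in SPM compared to CK and 0.06 in DCM compared to CK, and the transcript of Kcnj3 has 43.9% GC. Kcnj3 in SPM compared to CK had a log2 fold change of 0.37 (95% interval 0.07 to 0.66, adjusted p = 0.0669).

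Atrial myocyte markers were set beside Kcnj3 and moved with it in part. The summed level of all 8 atrial markers, led by Nppa, Myl4 and Myl7, was 1632, 1209.9 and 1537 CPM in CK, 677, 1139 and 1202 in DCM, and 1182, 1579.6 and 1907 in SPM. Of the 8 markers, 7 had a positive log2 fold change in SPM compared to DCM and 1 passed. All 8 had negative values in DCM compared to CK and 2 passed. In SPM compared to CK only 4 of the 8 were higher, with a median of -0.14, while Kcnj3 was at 0.37. There 1 marker passed as higher and 1 as lower. CK replicate 1 had the highest atrial sum of the CK libraries (1632) and their lowest Kcnj3 (22.9). All 8 were above 1 CPM in every library. The part of the atrial markers in the result was not tested. Kcnj5 (Kir3.4), the partner subunit of Kcnj3 in the acetylcholine-activated channel, had a log2 fold change of 0.00 (SE 0.07) in SPM compared to DCM. A further limit is that 31.1% of the exon bases of Kcnj3 lie under an antisense gene, Gm26794, which had 5 to 13 counts per library. Whether counting used strand is not given in the sources used here, so reads of the genes cannot be told apart there.

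**Figure D4:**
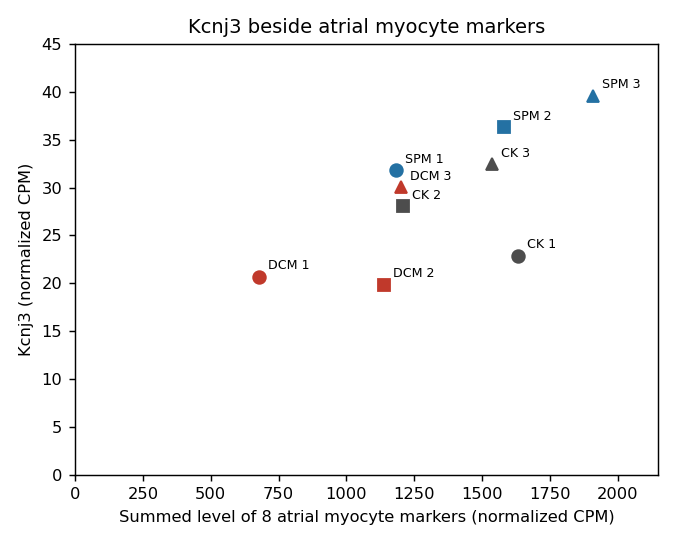
Kcnj3 (vertical axis, normalized CPM) against the summed level of 8 atrial myocyte markers (horizontal axis, normalized CPM), 1 point per library, with colour by group and symbol by replicate number. DCM replicate 1 has the lowest atrial sum (677) and SPM replicate 3 the highest (1907) as well as the highest Kcnj3 (39.6). CK replicate 1 has an atrial sum of 1632 with a Kcnj3 of 22.9.

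Kcnip2, the accessory subunit of the fast transient outward current, was lower in SPM than in both other groups. The gene (ENSMUSG00000025221) lies at chr19:45791839-45816061 on the minus strand of GRCm38. It stood at 229, 231 and 224 normalized CPM in CK, at 236, 219 and 216 in DCM and at 175, 186 and 197 in SPM. The SPM libraries did not overlap with either of the other groups, which overlapped with each other. It fell by 0.27 in log2 in SPM compared to DCM (SE 0.07, 95% interval -0.42 to -0.11, adjusted p = 0.0326). It also passed in SPM compared to CK, with a log2 fold change of -0.30 (SE 0.06, 95% interval -0.43 to -0.16, adjusted p = 0.00880). In DCM compared to CK the log2 fold change was -0.03, with a 95% interval of -0.17 to 0.12. Without SPM replicate 2 the log2 fold changes were -0.26 (adjusted p = 0.153) and -0.29 (adjusted p = 0.0566) compared to DCM and CK, and neither passed. With the GC offset they were -0.15 (adjusted p = 0.207) and -0.18 (adjusted p = 0.0739). The call in SPM compared to DCM was also lost without DCM replicate 1 (adjusted p = 0.0874), DCM replicate 2 (adjusted p = 0.0801) or SPM replicate 1 (adjusted p = 0.0777). The transcript of Kcnip2 has 55.1% GC. The summed level of the 7 ventricular markers was 44454 to 49536 CPM (CK), 42988 to 49553 CPM (DCM) and 36929.9 to 41265 CPM (SPM), and none of them was at 0. The most abundant, Myh6, stood at 22682 to 25845 CPM in CK and 13964 to 20253 CPM in SPM. Myl3 stood at 5968 to 6929 CPM in CK and 4937 to 5668 CPM in SPM, whereas the ranges of Myl2 overlapped. In SPM compared to CK, 2 of the 7 passed as higher and 3 as lower. In SPM compared to DCM, 1 passed as lower and none as higher. The part of the 7 markers in the result was not tested.

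Kcnd2 (ENSMUSG00000060882, chr6:21215503-21729805 on the plus strand of GRCm38) stood at 15.2, 17.6 and 23.0 normalized CPM in CK, at 12.7, 14.0 and 14.2 in DCM and at 12.8, 15.03 and 17.6 in SPM. All DCM libraries were below all CK libraries, which varied widely among themselves, and SPM overlapped with both. The log2 fold change in DCM compared to CK was -0.45 (SE 0.14, 95% interval -0.75 to -0.14) and did not pass (adjusted p = 0.0636). It passed with DESeq2 (adjusted p = 0.0346), without the low-count filter (adjusted p = 0.00568) and without CK replicate 1 (adjusted p = 0.0113), whereas without CK replicate 3 the log2 fold change was -0.27 (adjusted p = 0.243). Its value was 0.15 (95% interval -0.12 to 0.42) in SPM compared to DCM and -0.30 (95% interval -0.68 to 0.08) in SPM compared to CK.

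Kcnd3, the alternative pore of the same current, did not pass in any comparison. Its level was 12.3, 15.5 and 14.9 normalized CPM in CK, 13.7, 15.2 and 18.3 in DCM and 14.4, 14.6 and 14.9 in SPM, with overlap of all groups. The antisense gene Kcnd3os covers 1.72% of its exon bases. Its log2 fold change was 0.15 (95% interval -0.14 to 0.43) in DCM compared to CK and -0.11 (95% interval -0.35 to 0.14) in SPM compared to DCM.

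The ratio of these genes within a library does not depend on the scaling of the library, but no GC offset was applied to it. The transcripts have 44.4% (Kcnd2), 49.1% (Kcnd3) and 55.1% GC (Kcnip2). Spearman's correlation of the log2 fold change with GC content was -0.50 in SPM compared to DCM. The part of the GC trend in the ratios was not tested. Kcnd2 per length was 1.72, 1.58 and 2.15 times Kcnd3 in CK, 1.29, 1.28 and 1.08 times in DCM and 1.23, 1.43 and 1.64 times in SPM. All DCM ratios were below all CK ratios, with a difference in mean log2 ratio of -0.57, for which a two-sided exact permutation test gave p = 0.1, the smallest that 3 against 3 libraries allow. For SPM compared to DCM the difference was 0.24 with SPM replicate 2 (exact permutation p = 0.3) and without it. Kcnip2 per length was 13.1 to 17.3 times the sum of Kcnd2 and Kcnd3 in DCM and 11.5 to 12.5 times in SPM. The difference in log2 was -0.31 with SPM replicate 2 (exact permutation p = 0.1) and without it, and in DCM compared to CK it was 0.17 (exact permutation p = 0.5). Over the 6 such tests no adjusted p was below 0.3.

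Of the other genes of the transient outward current, which include the KChIP, DPP and Kv beta families, 6 of 10 in the table were tested and 1 passed. Kcnip3 (calsenilin, also called DREAM), a relative of Kcnip2, rose by 0.72 in log2 in DCM compared to CK (SE 0.16, adjusted p = 0.0137), from 4.22 to 4.43 normalized CPM in CK to 6.23 to 8.06 in DCM. None of the 6 passed in SPM compared to DCM or to CK, where 16.6% and 27.4% of all genes passed.

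Kcna4, the pore of the slow transient outward current, was the least abundant of the 9 genes. It had 56 to 117 counts per library, which were 1.79, 1.81 and 2.56 normalized CPM in CK, 2.66, 1.93 and 2.90 in DCM and 3.60, 3.28 and 2.67 in SPM. All SPM libraries were above all CK libraries, the closest pair being 2.67 and 2.56. The log2 fold change in SPM compared to CK was 0.63 (SE 0.23, 95% interval 0.10 to 1.16, adjusted p = 0.0749) and passed only without CK replicate 3 (0.81, adjusted p = 0.0445). The value in DCM compared to CK was 0.29 (95% interval -0.30 to 0.88).

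Kcna5, the ultrarapid delayed rectifier, did not pass in any comparison. Its level was 56.5, 50.1 and 65.1 normalized CPM in CK, 55.3, 71.9 and 67.7 in DCM and 55.2, 61.9 and 61.1 in SPM, with overlap of all groups. The log2 fold change was 0.18 (95% interval -0.06 to 0.42) in DCM compared to CK and -0.13 (95% interval -0.35 to 0.09) in SPM compared to DCM.

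Kcnq1, the pore of the slow delayed rectifier, did not pass in any comparison. It stood at 38.6, 38.8 and 43.3 normalized CPM in CK, at 32.1, 39.3 and 36.9 in DCM and at 50.5, 44.8 and 38.4 in SPM. SPM replicates 1 and 2 were above every CK and DCM library, and SPM replicate 3 lay within the DCM range. Its log2 fold change in SPM compared to DCM was 0.30 (95% interval 0.06 to 0.54, adjusted p = 0.0767), and it passed without SPM replicate 3 (0.40, adjusted p = 0.0197). An antisense transcript, Kcnq1ot1, covers 2.96% of its exon bases. Kcne1 (minK), the accessory subunit of Kcnq1, rose in SPM. It stood at 6.95, 8.18 and 9.08 normalized CPM in CK, at 11.03, 9.07 and 10.5 in DCM and at 20.02, 17.4 and 12.9 in SPM. Every SPM library was above every other library, although the SPM libraries differed among themselves. Its log2 fold change was 0.71 (SE 0.15, adjusted p = 0.0171) compared to DCM and 1.05 (SE 0.17, adjusted p = 0.00357) compared to CK. Without SPM replicate 2 these were 0.69 (adjusted p = 0.0676, not passing) and 1.03 (adjusted p = 0.0174). Its 0.34 in DCM compared to CK did not pass (adjusted p = 0.160).

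Kcnh2 (ERG), the pore of the rapid delayed rectifier, rose in both comparisons with CK. It stood at 88.8, 81.0 and 82.2 normalized CPM in CK, at 132, 153 and 132 in DCM and at 119, 123 and 127 in SPM. All CK libraries were below all others, and those of SPM were below those of DCM. The log2 fold change was 0.73 (SE 0.08, adjusted p = 1.38e-04) in DCM and 0.54 (SE 0.06, adjusted p = 0.00110) in SPM compared to CK. Without SPM replicate 2 the value in SPM compared to CK was 0.54 (adjusted p = 0.00919), and with the GC offset it was 0.74. The difference of -0.18 in SPM compared to DCM did not pass (adjusted p = 0.124), and its sign turned with the GC offset (0.04, adjusted p = 0.781).

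**Figure D5:**
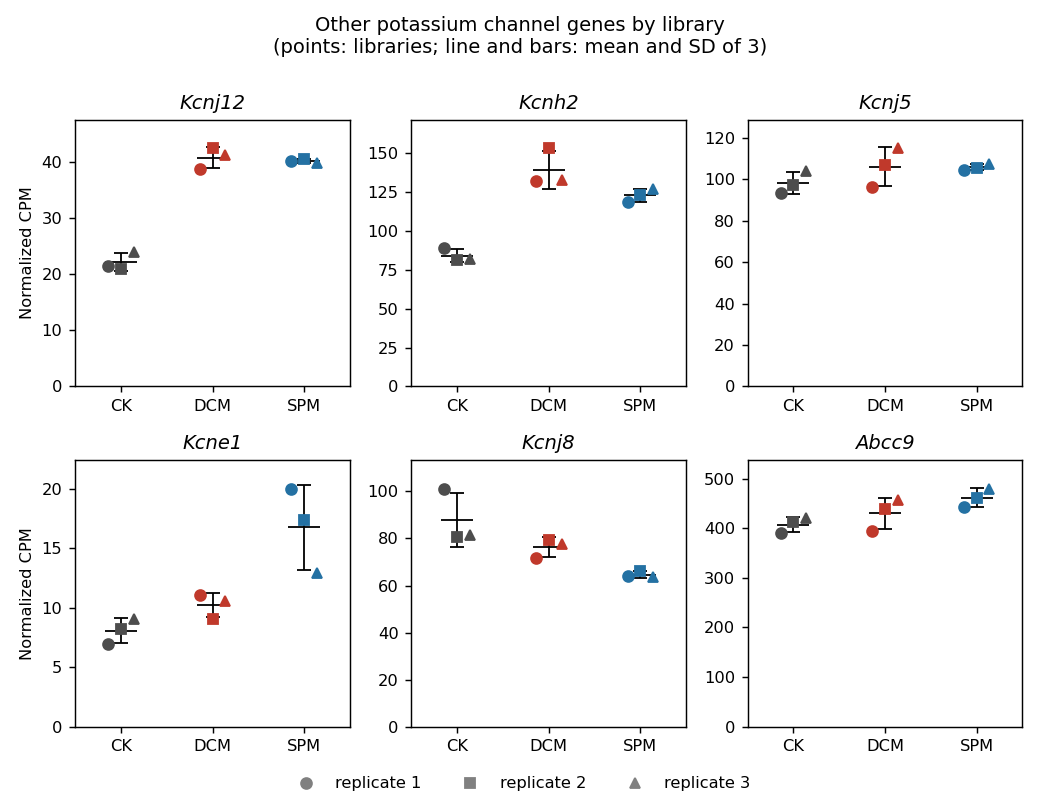
Normalized CPM per library (vertical axes from 0) of 6 other potassium channel genes in CK, DCM and SPM, with the mean and SD of 3 libraries. Kcnj12 and Kcnh2 are higher in all DCM and SPM libraries than in all CK libraries, and Kcne1 is highest in SPM.

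Of 88 other potassium channel genes on the lists, 76 were in the table and 42 to 45 were tested. Of 45 tested in DCM compared to CK, 6 passed as higher and 1 as lower, and 4 were DEGs, with a median log2 fold change of 0.10. Of those tested, 15.6% passed, whereas over all genes 10.4% passed and 4.34% were DEGs. Those higher included, beside Kcnj12, Kcnh2 and Kcnip3, Kcnt1, a sodium-activated channel, at 1.17 (SE 0.30, 37 to 47 counts per CK library), and Kcna2 (Kv1.2) at 0.53 (SE 0.12). Kcnk3 (TASK-1), a two-pore background channel, also rose, by 0.23 (SE 0.07, adjusted p = 0.0478). Of 44 tested in SPM compared to DCM, 1 passed as higher and 5 as lower, with a median of -0.18. Passing genes were 13.6% of those tested, below the 16.6% of all genes. Of the 44, 4 were DEGs, against 3.59% of all genes. Those that passed as lower included Kcnc1 (-3.26, SE 0.51), Kcnn1 (-0.80, SE 0.13) and Kcnj8. Kcnc1, a pore of fast voltage-gated channels best known from neurons, was scarce, with 2 to 5 counts per SPM library. Without SPM replicate 2 only Kcnn1, a small-conductance calcium-activated channel, passed (-0.82, adjusted p = 0.0447). Of 42 tested in SPM compared to CK, 4 passed as higher and 4 as lower, with a median of -0.02. Passing genes were 19.0% of those tested, below the 27.4% of all genes. Of the 42, 5 were DEGs, against 9.21% of all genes. Those that passed as higher were Kcne1, Kcnj12, Kcnh2 and Kcnk13 (1.86, SE 0.49), which was scarce, with 8 to 40 counts per CK library. Those that passed as lower included Kcnn1 (-0.83, SE 0.10) and Kcnj8. Kcnn1 was at -0.85 without SPM replicate 2 (adjusted p = 0.00976). Kcnk13 did not pass without SPM replicate 2 (adjusted p = 0.0610).

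Regulators and scaffolds of these channels were a list of 16 genes, all tested. In DCM compared to CK, 6 passed, all as higher, against 10.4% of all genes passing and 5.28% as higher. They were the Iroquois factors Irx3, Irx4 and Irx5, of which Irx5 is known to repress Kcnd2 in ventricle, Klf15, a Krüppel-like factor known to act on Kcnip2, and Hey2 and Tbx5, factors of ventricular and conduction patterning. Irx3 was the only DEG, at 24.6 to 30.1 normalized CPM in CK and 52.5 to 56.7 in DCM, with a log2 fold change of 0.99 (SE 0.09). Irx5 rose by 0.48 (SE 0.12) and Klf15 by 0.50 (SE 0.09). Higher in SPM compared to DCM were 3 that passed, Akap9, a scaffold of the Kcnq1 channel, Camk2d, a calcium-dependent kinase, and Mef2c, a muscle transcription factor, and none passed as lower, against 16.6% of all genes passing and 8.87% as higher. None of these 3 passed with the GC offset or without SPM replicate 2. In SPM compared to CK 10 of 16 passed, all as higher, with a median of 0.31, and 5 of 16 passed without SPM replicate 2. Over all genes 27.4% passed there, 13.0% as higher. With the GC offset, Etv1 (adjusted p = 0.191), Mef2c (adjusted p = 0.398) and Camk2d (adjusted p = 0.359) did not pass. Among the 10 were Irx3 (0.79, SE 0.08), Klf15 (0.58, SE 0.11) and Irx5 (0.38, SE 0.10), of which Irx5 did not pass without SPM replicate 2 (adjusted p = 0.0845) and Irx3 (0.80, adjusted p = 0.00575) and Klf15 (0.58, adjusted p = 0.0299) did. Irx4 is also on the list of ventricular markers.

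The genes whose levels followed the channel genes most closely were sought among 14909 genes, by Pearson's r of log2 normalized CPM over the 9 libraries. The 9 points share 3 groups and the GC trend, and r is given as a description. Kcnj11 was most like Hadha (r = 0.99), a mitochondrial enzyme of fatty acid oxidation, and Kcnj12 (r = 0.99). Kcnip2 was most like Tmem160 and Cisd3 (r = 0.98 each), and Kcnj3 most like Cbx5 (r = 0.99) and Pkia (r = 0.98), of which Pkia codes for an inhibitor of protein kinase A. Kcnd2 was most like Unc13b (r = 0.95) and Frmpd1 (r = 0.94), Kcnd3 like Tekt4 (r = 0.94) and Fam228b (r = 0.93), and Kcna4 like Hp1bp3 (r = 0.98) and Nupr1l (r = 0.97). Kcna5 was most like Snrk (r = 0.98) and Maneal (r = 0.95), Kcnj2 like Meaf6 and Ei24 (r = 0.93 each), and Kcnq1 like Nup160 (r = 0.96) and Slc23a2 (r = 0.95). Among the 36 pairs of the 9 genes themselves, r ranged from -0.77, between Kcnip2 and Kcnq1, to 0.68, between Kcnip2 and Kcnj2.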

How the data were processed

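Counts of 9 mouse heart libraries, labelled CK, DCM and SPM with 3 libraries each, were analysed. The authors filtered Illumina reads with fastp 0.18.0 and deposited raw counts per gene. The submitters' processing notes list Bowtie 0.12.2 and the builds mm8 and mm9 without a role, and the counting tool is not given in the sources used here. FPKM values, which the authors deposited beside the counts, equal the count divided by a gene length and by the library's total, and 97.7% of these lengths are that of the longest transcript in GENCODE M21.

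DCM was compared to CK, and SPM to DCM and to CK, each fitted on its own 6 libraries with edgeR 4.0.16 in R 4.3.3 (filterByExpr, TMM, quasi-likelihood test, Benjamini-Hochberg adjustment over all genes tested). The thresholds (adjusted p 0.05, fold change 1.5) follow the study's methods. Normalized CPM are counts scaled to TMM-adjusted library totals. Ratios were compared by two-sided exact permutation tests over libraries. The steps were tested on simulated data. Alternatives were DESeq2 1.42.0, a replicate block, one fit of all 9 libraries, no filter on low counts, a filter of 1 CPM in 3 libraries, RLE scaling, limma 3.58.1 on log2 of FPKM plus 0.1 or plus 1, an offset for each library's trend on GC content (lowess span 0.3), no mitochondrial genes, and each library left out in turn.

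Depth was 29901300 to 39718680 counts per library. The spread between libraries, which intervals of the log2 fold changes include, was estimated from 3 libraries per group. Motifs were sought in RefSeq promoter windows (GRCm38.p6), of which 7 of the 9 genes had one (not Kcnj11 and Kcnq1), and GENCODE M21 gave exon overlaps. The channel genes, lists and tests were chosen with earlier results of these data known. Genes named are the 9 channel genes, DEGs of the lists, the 3 most abundant genes of the marker lists used, and the 2 genes most like each channel gene. Abcc8, Abcc9, Kcnj5, Kcnj8, Kcna2, Kcnk3, Gm26794, Kcnd3os, Kcnq1ot1 and the regulators other than Irx3 were named after their values were seen. Some genes of the lists are not reported here by name, but are counted.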

Additional observations from a re-analysis of the deposited data

How the results depend on the processing

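Kcnj11 passed under all 16 alternatives in both comparisons with CK, whereas no other call on the 9 genes did. In DCM compared to CK, the number of the 9 genes that passed was 1, and 2 with DESeq2 or without the low-count filter, 0 with the fold limit, and 1 to 2 with a library left out. In SPM compared to DCM it was 2, and 1 with the GC offset or the fold limit, and 0 to 3 with a library left out. In SPM compared to CK it was 2, and 3 with DESeq2 or limma, 4 with the replicate block (Kcnd2, Kcnj3, Kcnip2 and Kcnj11), 0 with the fold limit, and 1 to 4 with a library left out. Correlations of residuals were -0.07 to 0.20 between libraries of the same number and -0.28 to 0.22 between others. In SPM compared to CK those of the same number were -0.05, 0.17 and 0.20. These overlapping ranges cannot settle whether the replicate numbers pair the libraries. In the other comparisons the replicate block changed no call on the 9 genes. Of the other potassium channel genes, the count of 7 in DCM compared to CK was 4 with the fold limit and 3 to 7 with a library left out, the count of 6 in SPM compared to DCM was 3 with the GC offset and 1 to 7 with a library left out, and the count of 8 in SPM compared to CK was 5 with the fold limit. Among the 9 genes, signs turned only for values that did not pass, as did those of Kcnh2 (-0.18 to 0.037) and Irx3 (-0.19 to 0.039) in SPM compared to DCM with the GC offset. Log2 fold changes with a library left out were -0.059 to 0.0037 for Kcnip2 in DCM compared to CK, -0.21 to 0.0079 for Kcnd3 in SPM compared to DCM, and -0.065 to 0.10 for Kcnd3 and -0.041 to 0.15 for Kcna5 in SPM compared to CK. The GC offset gave -0.036 for Kcnd2 and 0.11 for Kcnj11 in SPM compared to DCM. On log2 of FPKM plus 0.1 and plus 1, Kcnd3 had -0.049 and -0.035 and Kcna5 -0.040 and -0.038 in SPM compared to CK. The cause of these changes was not tested. With 3 libraries per group, the exact tests of ratios could not go below 0.1, and Kcna4, with 56 to 117 counts per library, had the widest intervals.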
